A study of Mus musculus with 4 samples.

Results

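Genes for subunits of serine/threonine protein phosphatases were read in chromatin immunoprecipitation and sequencing (ChIP-seq) of FoxO1 from mouse heart. FoxO1 is a forkhead transcription factor that growth factor signalling moves out of the nucleus. The genes were chosen by symbol: those of the regulatory and catalytic subunits of the PPP family (symbols starting with Ppp and a digit) and those of the PPM family (symbols starting with Ppm1). The 3 calcineurin genes Ppp3ca, Ppp3cb and Ppp3r1 were left out. In all, 62 such genes were assigned at least 1 region with FoxO1 signal, of 11718 genes with a region in the authors' table of regions merged over libraries. The symbol rule takes in proteins that are no phosphatase subunit in the strict sense, such as Ppp2r4, whose product PTPA activates the PP2A enzyme.

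The hypertrophied hearts came from mice given isoproterenol, a beta-adrenergic agonist, under the skin at 3 mg/kg/day (Iso), or from mice whose aortic arch was narrowed by transverse aortic constriction (TAC), which loads the left ventricle with pressure. The normal hearts came from mice with vehicle injections and a sham operation (Veh/Sham). All mice were wild type C57BL/6 males 12 weeks old, and each treatment lasted 7 days. Each library was made with an anti-FoxO1 antibody from 1 pool of 3 hearts with Drosophila chromatin added, so no group had replicates, the spread within a group is unknown, and no test was made. Every difference below is a difference between 2 libraries, and both hypertrophy libraries are set against the same Veh/Sham library. An input library made from DNA of all samples was not analysed here. A whole heart holds several cell types: more cells with bound FoxO1 and more FoxO1 per cell cannot be told apart, and the region table holds no expression values by which the tissue label could be checked.

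A phosphatase of this class is usually a holoenzyme, in which few catalytic subunits are combined with many regulatory subunits that choose the substrate. PP1 catalytic subunits work with targeting proteins for glycogen, myosin, the endoplasmic reticulum or the nucleus, and with inhibitors. PP2A is a trimer of a catalytic subunit, a scaffold and a variable B subunit, whereas PPM enzymes are monomers that depend on magnesium or manganese. In heart muscle, PP1 and PP2A oppose protein kinase A at calcium handling proteins such as phospholamban, and PP2A can also dephosphorylate FoxO1.

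The RefSeq promoters of 5 members are shown because their regions carry the results below: Ppm1k had the highest Iso ratio, Ppp2r1a is the main PP2A scaffold, Ppp2r2d is a PP2A B subunit with more signal in TAC, and Ppp6c and Ppp1r7 had the highest signal. Each runs from 250 bases before the annotated start to 50 bases after it, 5′ to 3′ on the strand of the gene, in GRCm38.p6, the assembly that mm10 is built on. Capitals mark CG dinucleotides. The windows are chr6:57535438-57535737 on the minus strand for Ppm1k, chr17:20945204-20945503 on the plus strand for Ppp2r1a, chr7:138846109-138846408 on the plus strand for Ppp2r2d, chr2:39226300-39226599 on the minus strand for Ppp6c and chr1:93343378-93343677 on the plus strand for Ppp1r7.
Ppm1k: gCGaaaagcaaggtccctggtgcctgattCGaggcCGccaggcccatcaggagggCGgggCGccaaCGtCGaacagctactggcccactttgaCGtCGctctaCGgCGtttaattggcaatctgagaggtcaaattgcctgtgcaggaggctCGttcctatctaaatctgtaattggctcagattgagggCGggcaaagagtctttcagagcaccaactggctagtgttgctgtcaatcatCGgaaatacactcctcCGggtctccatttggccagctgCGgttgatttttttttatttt
Ppp2r1a: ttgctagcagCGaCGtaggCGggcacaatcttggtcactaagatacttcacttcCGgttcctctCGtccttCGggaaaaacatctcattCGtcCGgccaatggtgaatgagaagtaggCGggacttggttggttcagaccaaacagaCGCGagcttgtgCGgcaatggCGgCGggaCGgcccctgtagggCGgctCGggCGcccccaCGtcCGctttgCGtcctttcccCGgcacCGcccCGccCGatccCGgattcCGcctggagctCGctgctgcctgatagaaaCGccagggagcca
Ppp2r2d: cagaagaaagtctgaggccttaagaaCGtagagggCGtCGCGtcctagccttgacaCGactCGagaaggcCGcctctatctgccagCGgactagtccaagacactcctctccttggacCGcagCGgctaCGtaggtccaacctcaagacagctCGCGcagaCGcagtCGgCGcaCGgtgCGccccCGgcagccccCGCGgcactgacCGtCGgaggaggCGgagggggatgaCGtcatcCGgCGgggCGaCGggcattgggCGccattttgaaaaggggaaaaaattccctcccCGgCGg
Ppp6c: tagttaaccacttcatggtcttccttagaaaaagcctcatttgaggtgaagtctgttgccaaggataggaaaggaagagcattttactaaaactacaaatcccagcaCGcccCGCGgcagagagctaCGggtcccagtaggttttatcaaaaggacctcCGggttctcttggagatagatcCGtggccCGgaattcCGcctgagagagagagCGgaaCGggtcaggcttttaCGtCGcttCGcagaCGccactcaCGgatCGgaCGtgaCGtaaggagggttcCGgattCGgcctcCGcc
Ppp1r7: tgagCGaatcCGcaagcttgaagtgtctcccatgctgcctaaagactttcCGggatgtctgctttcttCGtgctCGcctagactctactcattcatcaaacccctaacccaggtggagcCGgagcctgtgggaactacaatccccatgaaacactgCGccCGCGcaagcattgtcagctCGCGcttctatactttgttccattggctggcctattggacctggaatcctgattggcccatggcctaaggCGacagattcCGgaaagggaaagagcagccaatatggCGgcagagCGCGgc
The Ppm1k promoter holds 16 CG dinucleotides and that of Ppp1r7 also 16, against 21 for Ppp6c, 29 for Ppp2r1a and 32 for Ppp2r2d. All 300 bases lay inside the member's region except for Ppp2r2d, where 269 did. Ppm1k was the member whose region lay within 1000 bp of its own start without overlapping an annotated CpG island, 1 of 62 members, against 5.57% of all genes with a region. The FoxO recognition sequence GTAAACA, with its reverse complement TGTTTAC, occurred in none of the 63 promoters that RefSeq gives for 49 of the 62 members. It occurred in 2.73% of the 10527 promoters of all genes with a region and in 3.65% of all 32851 promoters. The shorter AAACA or TGTTT, which the longer motif contains, occurred in 20 of the 63 (31.7%), against 38.0% of promoters of genes with a region and 50.5% of all promoters. In the promoters shown, it starts at bases 78 and 141 of Ppp2r1a and at base 149 of Ppp1r7, counted from 1 at the 5′ end. These are matches of letters within a 300 base window only. The members' promoters had a median of 22 CG dinucleotides and 62.3% G and C, against 20 and 60.7% for genes with a region and 7 and 52.7% for all promoters.

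Most genes of the phosphatase families were assigned a merged region, which need not have been called in any of the 3 libraries. The highest region of 10 members (16.1%) was called in none of them, against 17.3% of all genes. Of 86 protein-coding family symbols in RefSeq, 61 (70.9%) had a region by current symbol, against 9638 of 21900 protein-coding genes (44.0%). All 3 PP1 catalytic genes, all 4 PP2A catalytic and scaffold genes, all 5 genes of the myosin targeting group and 11 of 12 PPM genes had one. Shares for PP1 inhibitors, with 4 of 9 genes, and glycogen targeting subunits, with 3 of 7, were near the 44.0% of all protein-coding genes. Among those without a region in the table used here were Ppp1r1a, inhibitor-1, which protein kinase A switches on under beta-adrenergic stimulation, and Ppp1r3a, the glycogen targeting subunit of striated muscle. The 62 members had 144 regions in all, and 23 members had a single region. No 2 members shared a region. For members with several regions, the values below are those of the region whose mean signal, averaged over the 3 libraries, was highest. In 8 members a second region reached at least 90% of the highest, so the choice between them is close.

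Most of these regions lay at promoters. Distances are from the start site to the centre of the region, as the table gives them. The region of 53 members (85.5%, 95% Wilson interval 74.7 to 92.2) lay within 1000 bp of an annotated start site, against 80.3% of all genes, and that of 52 members (83.9%) overlapped a CpG island, against 76.5%. In 38 members (61.3%) it lay within 1000 bp of the member's own start site, against 56.5% of all genes, and in 15 members only at the start of another gene. The region of 34 members (54.8%) was assigned to more than 1 gene, against 65.7% of all genes. Such assignments matter for Ppp1r35, Ppm1g, Ppp2r5d, Ppp2r2a, Ppm1d and Ppp4c, all with high signal. Their regions lay downstream of the gene and 8639 to 63528 bp from its start. Median region length was 597.5 bp for members and 536 bp for all genes.

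Signal at the phosphatase genes was highest in TAC for most members. The mean signal of a region, the authors' coverage value averaged over it, had a median over members of 15.6 in Iso, 17.7 in TAC and 11.9 in Veh/Sham, against 13.3, 16.7 and 10.8 over all genes. TAC was the highest of the 3 libraries for 43 members (69.4%), against 66.8% of all genes, and the lowest for 1 member (1.61%), against 9.51%. The authors called an interval in the region of 39 members in Iso, 37 in TAC and 43 in Veh/Sham (62.9%, 59.7% and 69.4%), against 50.9%, 61.7% and 66.4% of all genes. In 32 members (51.6%) it was called in all 3 libraries, against 38.2%, and in 10 (16.1%) in none, against 17.3%. Those 10 were Ppp1r11, Ppp1r12a, Ppp1r1b, Ppp1r27, Ppp1r3b, Ppp1r3c, Ppp2cb, Ppp3cc, Ppp4r1 and Ppp5c. Median peak depth, the largest number of overlapping fragments in the region, was 25.5 in Iso, 26 in TAC and 19 in Veh/Sham, so a counting interval on 1 ratio is wide. Such intervals cover counting error only, since without molecular identifiers the fragments may include copies of 1 molecule. They are set against 1 and not against the shift of all genes. By peak depth the median log2 ratio of all genes was 0.30 in Iso and 0.485 in TAC against Veh/Sham. The sources used here do not say how the authors scaled signal between libraries, so the shift shared by all genes is given beside each comparison.

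**Figure D1:**
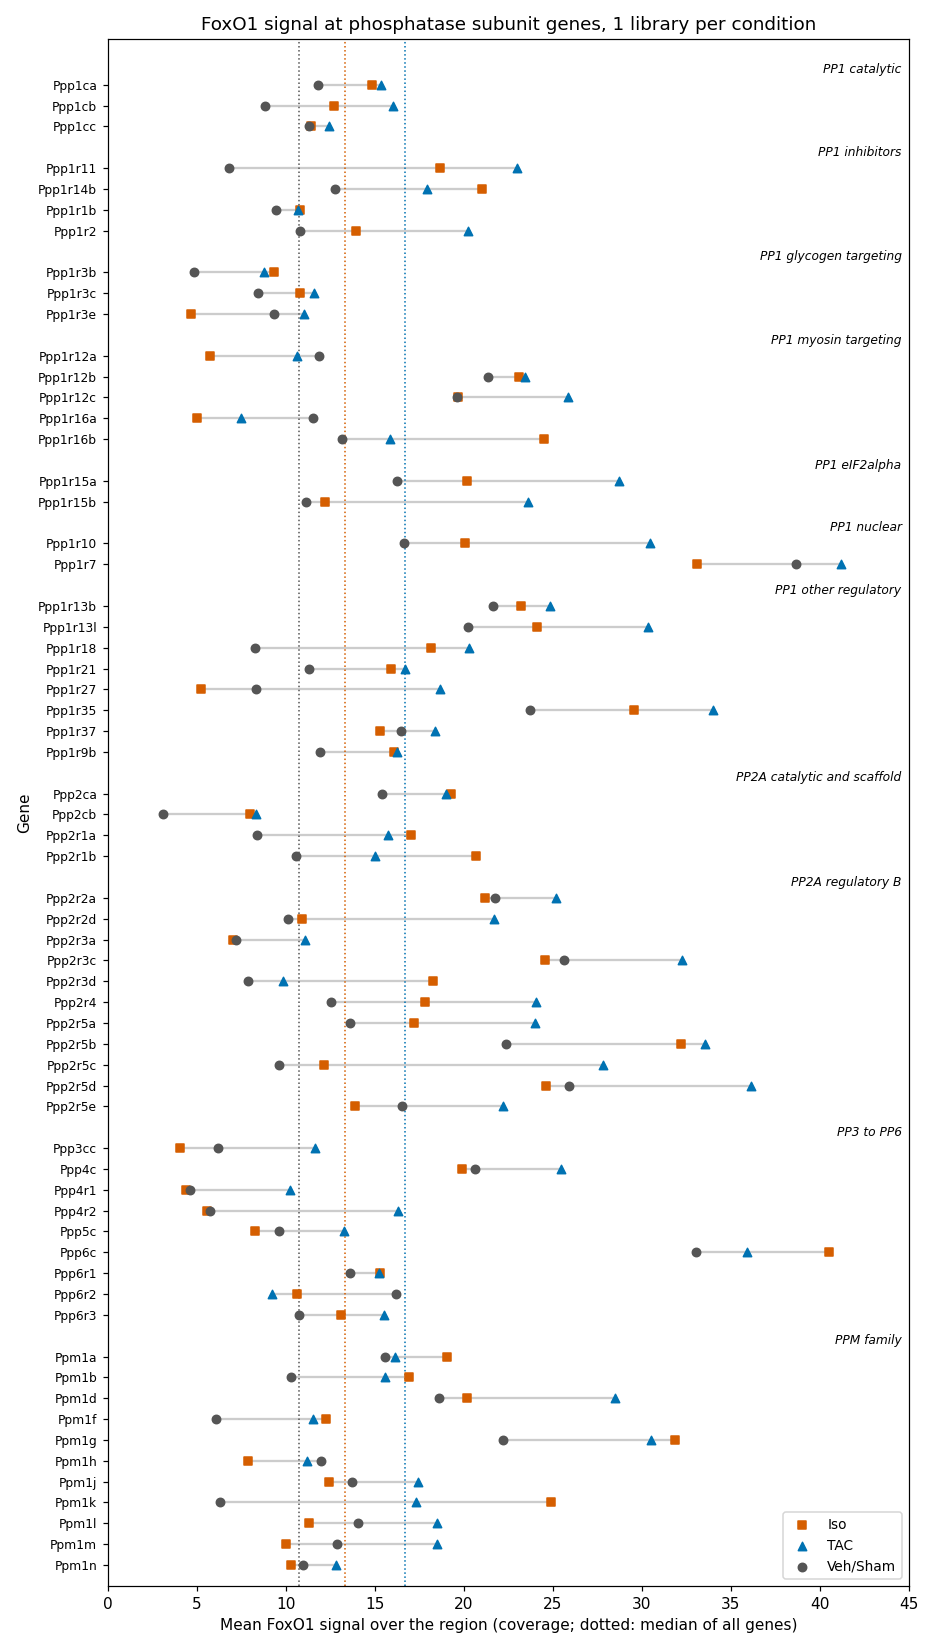
Mean signal of each member's highest region in Iso, TAC and Veh/Sham (x axis, authors' coverage units), with members down the page by role and 1 point per library. Ppp1r7 and Ppp6c lie farthest to the right, and the TAC point is the rightmost for 43 of 62 members.

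The highest signal was at Ppp1r7, whose product SDS22 binds PP1 in the nucleus and elsewhere, and at Ppp6c, the catalytic subunit of PP6. Ppp1r7 (chr1:93342656-93343976, 329 bp before its start) had a mean signal of 33.1 in Iso, 41.2 in TAC and 38.6 in Veh/Sham. Ppp6c (chr2:39226017-39226716, 28 bp before its start) had 40.5 in Iso, 35.9 in TAC and 33.05 in Veh/Sham. Both promoters are printed above, and in neither did any pair of libraries differ by 1.5-fold. Next came Ppp2r5b, a PP2A B subunit of the B56 family, with 32.2 in Iso, 33.5 in TAC and 22.4 in Veh/Sham. Ppp1r35 had 29.6 in Iso, 34.0 in TAC and 23.7 in Veh/Sham, Ppp2r5d had 24.6 in Iso, 36.1 in TAC and 25.9 in Veh/Sham, and Ppm1g had 31.8 in Iso, 30.5 in TAC and 22.2 in Veh/Sham. For Ppp1r35, Ppp2r5d and Ppm1g this is the region downstream of the gene. At its own start, Ppp1r35 had 9.89 in Iso, 11.7 in TAC and 7.11 in Veh/Sham. Ppm1g had 17.5 in Iso, 15 in TAC and 15.4 in Veh/Sham in a region 200 bp before its start, and 7.08 in Iso, 17.8 in TAC and 5.92 in Veh/Sham in a region 349 bp inside it, where TAC stood apart. The lowest mean over the 3 libraries was at Ppp4r1, a regulatory subunit of PP4, with 4.38 in Iso, 10.2 in TAC and 4.62 in Veh/Sham.

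In Iso against Veh/Sham, signal was higher at the mitochondrial phosphatase Ppm1k and at 3 of the 4 PP2A catalytic and scaffold genes. Of the 5 genes of the myosin targeting group, 2 were lower and 1 was higher. The size rule used throughout is a 1.5-fold difference, a log2 ratio of 0.58 on the scale of mean signal plus 1, and it involves no test. By this rule 12 members were higher, against a background of 25.3% of all genes, and 4 were lower, against 5.42%. The median log2 ratio was 0.21 over members (order-statistic interval 0.00 to 0.31) and 0.26 over all genes. Here and below, such an interval reflects the spread over genes within 1 pair of libraries. It does not measure the uncertainty between groups. Relative to the median of all genes, 9 members were higher (background 13.7%) and 8 lower (background 11.6%). The 9 were Ppm1k, Ppp1r11, Ppp2cb, Ppp2r3d, Ppp1r18, Ppp2r1a, Ppp2r1b, Ppm1f and Ppp1r16b. The 8 were Ppp1r16a, Ppp1r12a, Ppp1r3e, Ppp1r27, Ppp6r2, Ppm1h, Ppp3cc and Ppm1m. As a family the members therefore stood close to all genes, and what follows concerns single genes and small groups. The counting interval of the peak depth ratio lay wholly above 1 for 3 members, Ppm1k, Ppp1r16b and Ppm1g (background 11.8%), and wholly below 1 for 0 members (background 0.888%).

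Ppm1k encodes the mitochondrial phosphatase that activates the branched-chain ketoacid dehydrogenase, the enzyme complex that commits branched-chain amino acids to breakdown. Its region (chr6:57535419-57535817, 192 bp before the start) had a mean signal of 24.9 in Iso, 17.3 in TAC and 6.31 in Veh/Sham. Peak depth was 32 fragments in Iso, 21 in TAC and 10 in Veh/Sham. Both hypertrophy libraries were above Veh/Sham, with log2 ratios of 1.83 in Iso and 1.32 in TAC, and the Iso ratio was the highest of the 62 members. As a ratio of peak depths, Iso stood at 3.20 (exact 95% counting interval 1.53 to 7.30) and TAC at 2.10 (0.947 to 4.99). The authors called the interval in Iso alone. A neighbouring region, centred 230 bp inside the gene, had 7.77 in Iso, 17.3 in TAC and 8.39 in Veh/Sham, so on that side of the start TAC was above both other libraries.

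Among the PP2A catalytic and scaffold genes, 3 of 4 were at least 1.5-fold higher in Iso, against 25.3% of all genes. The median log2 ratio of the 4 was 0.92, against 0.26 over all genes. Ppp2r1a, the main scaffold subunit (chr17:20945052-20946153, over the start), had a mean signal of 17.1 in Iso, 15.7 in TAC and 8.40 in Veh/Sham. Ppp2r1b, the other scaffold (chr9:50856913-50857209), had 20.7 in Iso, 15 in TAC and 10.6 in Veh/Sham. Iso was the highest and Veh/Sham the lowest for both scaffolds. The log2 ratios in Iso were 0.94 and 0.91 for Ppp2r1a and Ppp2r1b, and those in TAC 0.83 and 0.47. A second Ppp2r1b region, nearly as high and 28429 bp inside the gene, had log2 ratios of 0.24 in Iso and 0.23 in TAC, so the count of 3 rests on the region at the start. The peak depth ratio of Ppp2r1a in Iso was 1.93 with a counting interval of 0.976 to 3.98, which reaches 1. The Iso intervals of Ppp2r1b (0.893 to 3.72), Ppp2cb (0.705 to 8.08) and Ppp2ca (0.761 to 2.55) also reach 1. Ppp2cb, the beta catalytic isoform, had 8 in Iso, 8.33 in TAC and 3.11 in Veh/Sham, with log2 ratios of 1.13 and 1.18. It is a region of low depth, with peaks of 11, 11 and 5 fragments in Iso, TAC and Veh/Sham, and the authors called it in no library. Ppp2ca, the alpha catalytic isoform, had 19.3 in Iso, 19.0 in TAC and 15.4 in Veh/Sham and stayed under 1.5-fold, with log2 ratios of 0.31 and 0.29.

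PP1 genes differed less at the catalytic level in their highest regions. Ppp1ca, the alpha isoform, had a mean signal of 14.9 in Iso, 15.3 in TAC and 11.8 in Veh/Sham. Ppp1cb, the beta isoform that pairs with myosin targeting subunits, had 12.7 in Iso, 16.0 in TAC and 8.85 in Veh/Sham. Ppp1cc, the gamma isoform, had 11.4 in Iso, 12.4 in TAC and 11.3 in Veh/Sham. None of the 3 highest regions reached 1.5-fold in Iso, and in TAC only that of Ppp1cb did, with a log2 ratio of 0.79. Regions of lower signal inside the start of Ppp1ca and Ppp1cb passed 1.5-fold in Iso. That of Ppp1ca, 449 bp inside, had 6.40 in Iso and 2 in Veh/Sham. That of Ppp1cb, 727 bp inside, had a log2 ratio of 0.74 in Iso. Peaks in Iso and Veh/Sham were 8 and 3 fragments for Ppp1ca and 11 and 6 for Ppp1cb. A Ppp1ca region 9542 bp from the start stayed under 1.5-fold in Iso, at 0.48. The smaller difference thus rests on the choice of region. Of the PP1 inhibitors, 2 of 4 were higher in Iso, against 25.3% of all genes. Ppp1r11, inhibitor-3, had 18.7 in Iso, 23.0 in TAC and 6.83 in Veh/Sham, log2 ratios of 1.33 and 1.62, in a region of 199 bp that lies 6553 bp before its start and that was called in no library. At the start of Ppp1r11 itself the values were 10.4 in Iso, 13.2 in TAC and 8.82 in Veh/Sham, so the 1.5-fold excess was not present there. Ppp1r14b, a myosin phosphatase inhibitor, had 21.0 in Iso, 17.9 in TAC and 12.8 in Veh/Sham. Ppp1r1b, which encodes DARPP-32, was the lowest of the group in Iso, with 10.8 in Iso, 10.7 in TAC and 9.44 in Veh/Sham. That region lay downstream of the gene, 9882 bp from its start, and was shared with 1700003D09Rik and Stard3. Ppp1r18, whose product phostensin binds actin, had 18.1 in Iso, 20.3 in TAC and 8.27 in Veh/Sham, with log2 ratios of 1.05 and 1.20, in a region 4164 bp before its start. At its own start Ppp1r18 had log2 ratios of 0.24 in Iso and 0.64 in TAC, so the Iso excess was not present there.

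The lower members in Iso were Ppp1r12a, Ppp1r16a, Ppp1r3e and, exactly on the 1.5-fold limit, Ppp1r27. Ppp1r12a encodes MYPT1, the myosin targeting subunit of smooth muscle (chr10:108162438-108162716, 177 bp inside the gene). Its mean signal was 5.75 in Iso, 10.6 in TAC and 11.9 in Veh/Sham, a log2 ratio of −0.93 in Iso and −0.15 in TAC. A second Ppp1r12a region, 575 bp before the start, had 5.48 in Iso, 9.82 in TAC and 10.6 in Veh/Sham, so Iso was the lowest library on both sides of the start. Depth was small here: the peak was 7 fragments in Iso, 16 in TAC and 16 in Veh/Sham, and the Iso ratio of 0.438 had a counting interval of 0.152 to 1.12. Ppp1r16a, a relative of the myosin targeting subunits, had 5 in Iso, 7.47 in TAC and 11.5 in Veh/Sham, the lowest Iso log2 ratio among members at −1.06. Ppp1r3e, a glycogen targeting subunit, had 4.67 in Iso, 11 in TAC and 9.33 in Veh/Sham. The group was not uniform: Ppp1r12b, which encodes the MYPT2 form of heart and skeletal muscle, had 23.1 in Iso, 23.4 in TAC and 21.3 in Veh/Sham. Ppp1r12c had 19.7 in Iso, 25.9 in TAC and 19.6 in Veh/Sham, and Ppp1r16b, which encodes the endothelial protein TIMAP, was higher in Iso with 24.5, against 15.8 in TAC and 13.2 in Veh/Sham.

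Other members stood at the ends of the Iso ratios among regions of higher signal. Ppp2r3d, a PP2A B subunit of the B″ family, had 18.3 in Iso, 9.86 in TAC and 7.86 in Veh/Sham, so Iso stood apart from both other libraries, with a log2 ratio of 1.12. The low end held Ppm1m with 10 in Iso, 18.5 in TAC and 12.9 in Veh/Sham, and Ppm1l with 11.3 in Iso, 18.5 in TAC and 14.1 in Veh/Sham, 2 PPM enzymes below 1.5-fold in Iso. Ppp2r5e, of the B56 family, had 13.9 in Iso, 22.2 in TAC and 16.5 in Veh/Sham. For each of these last 3, Iso was the lowest library and TAC the highest.

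In TAC against Veh/Sham, the highest ratios among regions of higher signal were at Ppp1r11, the PP2A B subunit gene Ppp2r5c, Ppm1k and Ppp1r18. Both PP1 subunits that act on eIF2α were also higher, and Ppp6r2 was lower. By the 1.5-fold rule 21 members were higher, against a background of 46.1% of all genes, and 1 was lower, against 2.79%. The median log2 ratio was 0.46 over members (0.35 to 0.56) and 0.53 over all genes. Relative to the median of all genes, 6 members were higher (background 14.5%) and 4 lower (background 12.5%). The 6 were Ppp1r11, Ppp2r5c, Ppp4r2, Ppm1k, Ppp1r18 and Ppp2cb, and the 4 were Ppp6r2, Ppp1r16a, Ppp1r12a and Ppm1h. The share of members that were 1.5-fold higher was thus smaller than among all genes. This rests on taking 1 region per gene: averaged over all regions of each gene, 32 members were higher, against 48.2% of all genes. The counting interval of the peak depth ratio lay wholly above 1 for 9 members (background 20%) and wholly below 1 for 0 members (background 0.683%). Those 9 were Ppm1d, Ppp1r11, Ppp1r15b, Ppp1r2, Ppp1r27, Ppp2r2d, Ppp2r5a, Ppp2r5c and Ppp4r2. An interval above 1 can still hold the shift of all genes, a median log2 ratio of 0.485 by peak depth.

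Of the 11 other PP2A genes, 4 (3 B subunits and the activator Ppp2r4) were at least 1.5-fold higher in TAC and none lower, a smaller share than the 46.1% of all genes that were higher. Relative to the median of all genes, Ppp2r5c was the 1 that was higher. Ppp2r5c, which encodes the gamma B56 subunit (chr12:110446488-110446966, 452 bp before its start), had 12.1 in Iso, 27.8 in TAC and 9.60 in Veh/Sham, and a peak of 16, 36 and 16 fragments. TAC stood above both other libraries, which were close to each other, with a log2 ratio of 1.44 to Veh/Sham and a peak depth ratio of 2.25 (counting interval 1.22 to 4.34). A second Ppp2r5c region 38885 bp inside the gene, nearly as high, had 14.9 in Iso, 21.5 in TAC and 12.3 in Veh/Sham. Ppp2r2d, the delta B55 subunit (chr7:138845934-138846377, 231 bp before its start), had 10.9 in Iso, 21.7 in TAC and 10.1 in Veh/Sham. Its promoter is printed above, and its log2 ratio in TAC was 1.03 with a peak depth ratio of 2.14 (1.10 to 4.37). Ppp2r5a, the alpha B56 subunit, had 17.2 in Iso, 24 in TAC and 13.6 in Veh/Sham, a log2 ratio of 0.78. Ppp2r4, the PP2A activator, had 17.8 in Iso, 24.1 in TAC and 12.5 in Veh/Sham, in a region 25713 bp inside the gene. At its own start Ppp2r4 had 13.8 in Iso, 16.0 in TAC and 10.6 in Veh/Sham. The log2 ratio in TAC was 0.55 there, under 1.5-fold. At the other end of the group was Ppp2r2a, the alpha B55 subunit, with 21.2 in Iso, 25.2 in TAC and 21.8 in Veh/Sham. This Ppp2r2a region was shared with Bnip3l and lay downstream, 63528 bp from the start of Ppp2r2a. At its own start Ppp2r2a had 13.6 in Iso, 14.4 in TAC and 12.3 in Veh/Sham.

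Both eIF2α-directed subunits, which bring PP1 to the translation factor eIF2α and so restore translation after stress, had higher signal in TAC. Ppp1r15a, the stress-induced form GADD34 (chr7:45525694-45526635), had a mean signal of 20.2 in Iso, 28.7 in TAC and 16.3 in Veh/Sham. Ppp1r15b, the constitutive form CReP (chr1:133130767-133131990), had 12.2 in Iso, 23.6 in TAC and 11.2 in Veh/Sham. TAC was the highest library for both, with log2 ratios of 0.78 and 1.02 to Veh/Sham, under 1.5-fold once the shift of all genes was taken off. The counting interval of the peak depth ratio was 0.921 to 2.42 for Ppp1r15a and 1.03 to 2.94 for Ppp1r15b. Ppp1r10, which encodes the nuclear targeting subunit PNUTS, had 20.1 in Iso, 30.5 in TAC and 16.6 in Veh/Sham. Ppp1r2, inhibitor-2, had 13.9 in Iso, 20.2 in TAC and 10.8 in Veh/Sham. Ppp1r27 had 5.22 in Iso, 18.7 in TAC and 8.33 in Veh/Sham, the highest TAC ratio to Iso among members, in a region 1211 bp from its start and called in no library.

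PP4 regulatory subunits were higher in TAC while the highest region of its catalytic subunit was under 1.5-fold. Ppp4r2, which directs PP4 to proteins of the DNA damage response, had a mean signal of 5.57 in Iso, 16.3 in TAC and 5.71 in Veh/Sham, a log2 ratio of 1.36. Ppp4r1 had the values given above, a log2 ratio of 1. The Ppp4r2 and Ppp4r1 regions lay 642 and 606 bp inside the gene and had peaks of 19 and 13 fragments in TAC, against 7 and 6 in Veh/Sham. Ppp4c, the catalytic subunit, had 19.9 in Iso, 25.5 in TAC and 20.6 in Veh/Sham in a region 15167 bp from its start. At its own start it had 13.6 in Iso, 19.6 in TAC and 11.1 in Veh/Sham, a log2 ratio of 0.76 in TAC, past 1.5-fold.

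The remaining catalytic genes were Ppp3cc, Ppp5c and Ppp6c. Ppp3cc, the gamma isoform of the calcineurin catalytic subunit, had 4.07 in Iso, 11.7 in TAC and 6.20 in Veh/Sham, in a region 81647 bp from its start and called in no library. Ppp5c, which encodes a phosphatase that associates with Hsp90, had 8.29 in Iso, 13.2 in TAC and 9.62 in Veh/Sham. TAC was the highest library for both. The adjoining Ppp5c region, 140 bp inside the start, had 11 in Iso, 11.9 in TAC and 3 in Veh/Sham, so there Iso too was above Veh/Sham. In contrast, Ppp6r2, a regulatory subunit of PP6, had 10.6 in Iso, 9.21 in TAC and 16.2 in Veh/Sham in a region 1203 bp before its start. Ppp6r2 was the member lower in TAC, with a log2 ratio of −0.75, and the member for which TAC was the lowest library. Its region 280 bp before the start went the other way, with 12.7 in Iso, 13.3 in TAC and 8 in Veh/Sham. The PP6 genes Ppp6r1, with 15.3 in Iso, 15.2 in TAC and 13.6 in Veh/Sham, and Ppp6r3, with 13.1 in Iso, 15.5 in TAC and 10.7 in Veh/Sham, were under 1.5-fold in TAC.

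Among PPM genes, 3 of 11 were at least 1.5-fold higher in TAC, a smaller share than the 46.1% of all genes, and none was lower. They were Ppm1k, described above, Ppm1f and Ppm1d. Ppm1f, whose product dephosphorylates CaM kinases, had 12.2 in Iso, 11.5 in TAC and 6.05 in Veh/Sham, in a region 11613 bp inside the gene. Ppm1d, which encodes the p53-induced phosphatase WIP1, had 20.2 in Iso, 28.5 in TAC and 18.6 in Veh/Sham, in a region shared with Bcas3 and 41666 bp from its start. At its own start Ppm1d had 15.2 in Iso, 16.7 in TAC and 12.5 in Veh/Sham, under 1.5-fold. Ppm1a had 19.1 in Iso, 16.2 in TAC and 15.6 in Veh/Sham, and Ppm1h had 7.86 in Iso, 11.2 in TAC and 12.0 in Veh/Sham, the lowest of the family in both comparisons with Veh/Sham. PP1 glycogen targeting subunits had low signal, with Ppp1r3b, the liver form, at 9.36 in Iso, 8.79 in TAC and 4.86 in Veh/Sham, and Ppp1r3c at 10.8 in Iso, 11.6 in TAC and 8.44 in Veh/Sham.

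In their highest region, the members not yet described stayed under 1.5-fold in TAC, and among them only Ppm1b passed it in Iso. Ppm1b had 16.9 in Iso, 15.6 in TAC and 10.3 in Veh/Sham. The p53 regulators of the ASPP family had high signal in their highest regions. Ppp1r13l (iASPP) had 24.1 in Iso, 30.3 in TAC and 20.2 in Veh/Sham. Ppp1r13b (ASPP1) had 23.2 in Iso, 24.9 in TAC and 21.6 in Veh/Sham, in a region 13723 bp inside the gene. A Ppp1r13b region 219 bp before the start had 4.25 in Iso, 6.08 in TAC and 10.1 in Veh/Sham. Its log2 ratios were −1.08 in Iso and −0.65 in TAC, past 1.5-fold lower in both. The Ppp1r13b region 549 bp inside the start went the other way in TAC, with a log2 ratio of 1.35. The 2 B″ subunits of PP2A other than Ppp2r3d differed in level, with Ppp2r3c at 24.6 in Iso, 32.3 in TAC and 25.6 in Veh/Sham and Ppp2r3a at 7.06 in Iso, 11.1 in TAC and 7.18 in Veh/Sham. Iso was the lowest library in both. Ppp1r9b, the actin-binding spinophilin, Ppp1r21 and Ppp1r37 ranged from 15.3 to 16.1 in Iso, 16.3 to 18.4 in TAC and 11.3 to 16.5 in Veh/Sham. Ppm1j and Ppm1n ranged from 10.3 to 12.4 in Iso, 12.8 to 17.4 in TAC and 11 to 13.7 in Veh/Sham. In a region 295 bp inside its own start, Ppm1j had a log2 ratio of 1.02 in TAC, past 1.5-fold.

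**Figure D2:**
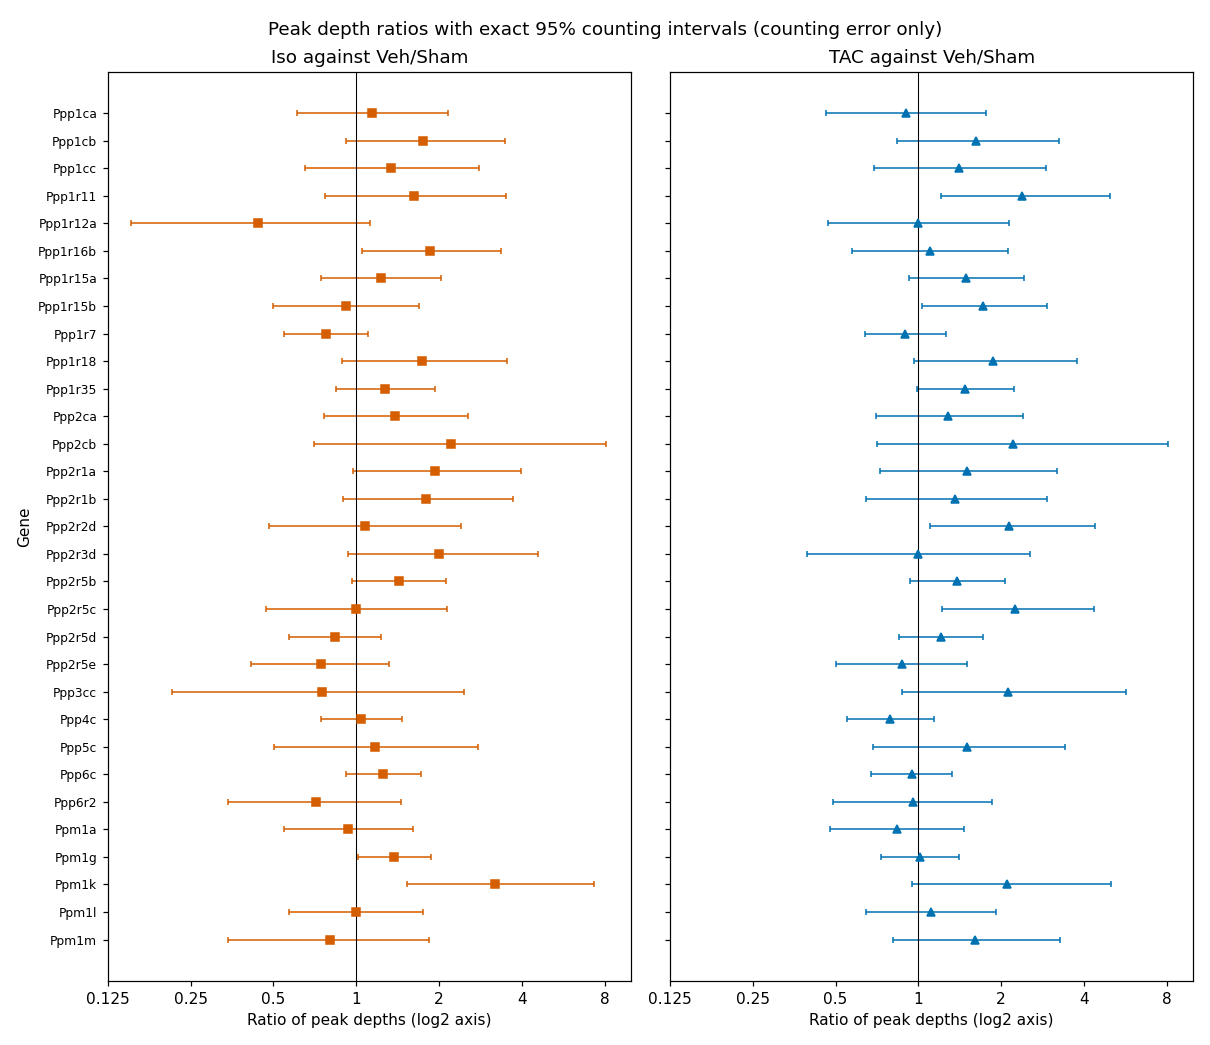
Ratio of peak depths (x axis, logarithmic) with exact 95% counting intervals for the members named, for Iso against Veh/Sham and TAC against Veh/Sham. The interval of Ppm1k lies above 1 in Iso (1.53 to 7.30) and reaches below 1 in TAC (0.947 to 4.99).

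Set directly against Iso, TAC had higher signal at 13 members, against a background of 27.3% of all genes, and lower signal at 2, against 5.91%. The median log2 ratio was 0.29 over members (0.09 to 0.45) and 0.29 over all genes. Relative to that median, 8 members were higher in TAC (background 12.7%) and 4 lower (background 13%). The 8 were Ppp1r27, Ppp4r2, Ppp3cc, Ppp2r5c, Ppp1r3e, Ppp4r1, Ppp2r2d and Ppp1r15b. The 4 lower were Ppp2r3d, with a log2 ratio of −0.83, Ppp1r16b with −0.60, Ppm1k with −0.50 and Ppp2r1b with −0.44. The median log2 ratio was −0.07 over the 4 PP2A catalytic and scaffold genes and 0.46 over the 11 other PP2A genes, with overlap: Ppp2cb had 0.05 and Ppp2r3d −0.83. The counting interval of the peak depth ratio lay wholly above 1 for 8 members (background 9.3%) and wholly below 1 for 1, Ppm1g (background 4.07%). This comparison uses the same libraries as those above and adds no independent support to them.

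Higher TAC signal was more frequent in member regions centred inside the gene's own start than in those centred before it, a split chosen after the values were seen. Members had 34 regions within 1000 bp inside their own start and 34 within 1000 bp before it. Inside the start, 23 of 34 (67.6%) were at least 1.5-fold higher in TAC than in Veh/Sham, against a background of 50.4%, and none was lower, against 3.69%. Before the start, 8 of 34 (23.5%) were higher, against 45.9%, and 1 was lower, against 3.1%. The median log2 ratio was 0.77 inside the start and 0.40 before it, against 0.59 and 0.53 for all genes. In Iso against Veh/Sham, 8 of 34 were higher inside the start (background 19%) and 3 of 34 before it (background 23.8%), with 3 lower inside (background 11.7%) and 4 lower before (background 6.92%). TAC was at least 1.5-fold above Iso in 18 of 34 regions inside the start (background 41.8%) and 7 of 34 before it (background 29.6%), and 1.5-fold below it in 0 regions on either side (backgrounds 2.96% inside and 4.54% before). The 76 member regions beyond 1000 bp were close to all genes: in TAC against Veh/Sham 42 were higher (background 53.9%) and 3 lower (background 3.46%). In Iso against Veh/Sham 25 of them were higher (background 33.6%) and 4 lower (background 6.42%), and in TAC against Iso 21 were higher (background 32.6%) and 6 lower (background 8.19%). Veh/Sham signal was lower inside the start, with a median of 7.48, than before it, with 12.6, and its part in the difference was not tested. Several regions of a gene are not independent of each other, and no test of the difference between the sides was made.

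**Figure D3:**
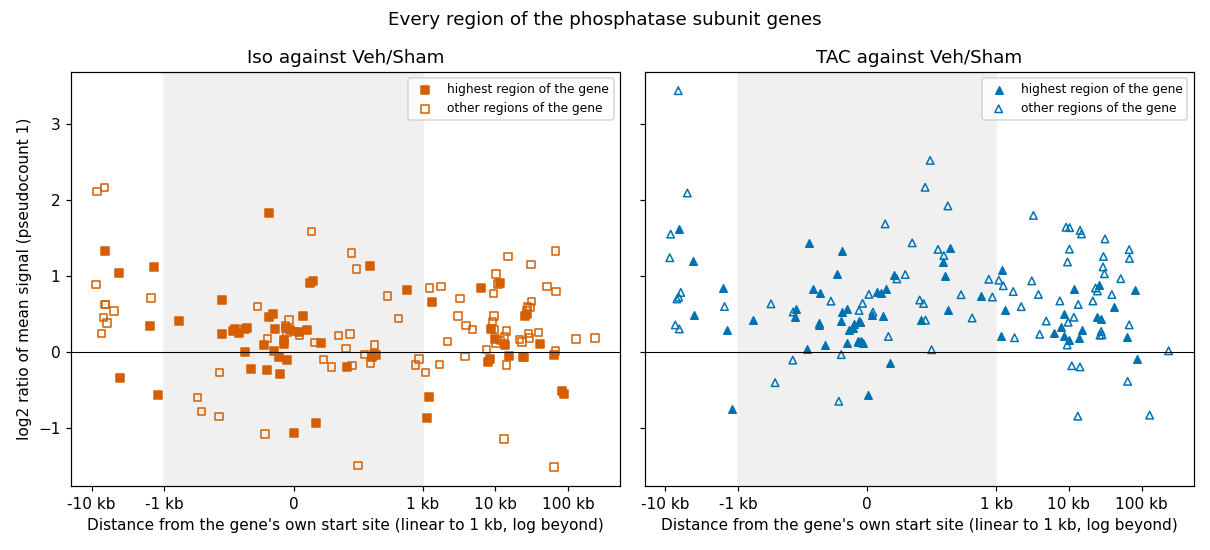
Distance of each of the 144 member regions from the gene's own start site (x axis, linear near 0 and logarithmic beyond, negative before the start) against the log2 ratio of mean signal plus 1 (y axis), for Iso and TAC against Veh/Sham, with the highest region of each gene filled. In TAC, 23 of 34 points within 1000 bp inside the start lie past 1.5-fold, against 8 of 34 points before it.

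Regions of 1 gene could differ widely in their TAC ratio, as in 3 members picked after their values were seen. Ppp1r16b had 6.40 in Iso, 18.9 in TAC and 2.47 in Veh/Sham in a region 488 bp inside its start, a log2 ratio of 2.52 in TAC, while its highest region 6311 bp inside the gene had a log2 ratio of 0.25. Ppp1ca had 6.40 in Iso, 12.5 in TAC and 2 in Veh/Sham in a region 449 bp inside its start, a log2 ratio of 2.17 in TAC, while the region before its start had a log2 ratio of 0.35. Ppp1r12b had 8 in Iso, 20.7 in TAC and 1 in Veh/Sham in a region 6611 bp before its start. The sides did not order in the same way in every gene: in Ppp1r10 the region inside the start had a log2 ratio of 0.45 in TAC, against 0.84 for the region before it. In the regions of Ppp1r16b, Ppp1ca and Ppp1r12b with high TAC ratios, Veh/Sham was near the bottom of the range, with peaks of 4, 3 and 1 fragments, so the ratios are imprecise. Over all 144 member regions, 73 (50.7%) were higher in TAC than in Veh/Sham and 4 lower, against 51.4% and 3.43% of all gene regions.

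Genes related to these phosphatases but outside the symbol rule were read for context. They are a mixed list of proteins that act on the enzymes, further subunits such as Smek1 and Smek2 of PP4, and other phosphatases. Of 26 such genes listed, 19 had a region outside the members. In Iso against Veh/Sham, 2 of the 19 were higher and 0 lower, against 25.3% and 5.42% of all genes, with a median log2 ratio of 0.03, against 0.26. In TAC against Veh/Sham, 6 were higher and 1 lower, against 46.1% and 2.79% of all genes, with a median of 0.48, against 0.53. Ppme1, the methylesterase that acts on the PP2A catalytic subunit, had 39.3 in Iso, 38.8 in TAC and 33.2 in Veh/Sham. Lcmt1, the methyltransferase that opposes it, had 15.8 in Iso, 18.5 in TAC and 9.53 in Veh/Sham, higher in both hypertrophy libraries. Pptc7, a mitochondrial PPM phosphatase whose symbol falls outside the rule, had 3.62 in Iso, 19.2 in TAC and 3.88 in Veh/Sham, a log2 ratio of 2.05 in TAC. Phactr2, a PP1 and actin binding protein, was the 1 lower in TAC, with 8.14 in Iso, 4.86 in TAC and 11.1 in Veh/Sham.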

How the data were processed

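FoxO1 ChIP-seq of mouse heart was deposited as a table of regions merged over libraries (mm10, per the submitters' processing notes, which also name BWA and SICER without version or role). Per the file headers, the authors give each library a mean and a peak value per region: the deposited signal is coverage, and the deposited peak values are whole numbers taken as depths. Other deposited columns are the authors' interval calls, CpG islands, genes and distances. The 6 further value columns, of 2 libraries matching no sample here, were not used. The scaling between libraries and the total depth of each are not given in the sources used here.

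Each gene was represented by its region of highest average over the 3 libraries, which include those compared. Log2 ratios used a pseudocount of 1, which understates ratios at low signal, and 1.5-fold was a rule of size. No p-value was computed, since each group was 1 library. Clopper-Pearson counting intervals (95%) of ratios used peak depths, the highest of several bins, and cover counting error only; shares have Wilson intervals and medians order-statistic intervals. Regions were picked for extreme ratios, so an interval that leaves out 1 is no test.

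Members and lists were chosen with earlier results of these data known. Named in full were the catalytic genes with Ppp1r12a, Ppp1r15a and Ppp2r1a, the 6 highest signals, the 4 highest and 4 lowest ratios per comparison among members whose region reached the median region signal of 11.2, and the ends of each role list. RefSeq GRCm38.p6 promoters were matched by symbol, and for 45 of 49 matched members the start lay within 50 bp of the table's. Alternatives were pseudocounts of 5 and 0.1, peak depth, a filter on low signal, recentring, called regions, a 2-fold rule and other choices of region. The size rule was tried on simulated depths only after recentring and with planted changes larger than 1.5-fold. Its behaviour at 1.5-fold was therefore not tested. The software was pandas 2.3.3 and numpy 2.4.6 under Python 3.11.15, with scipy 1.17.1 for intervals and matplotlib 3.10.9 for figures.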

Additional observations from a re-analysis of the deposited data

How the results depend on the processing

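No paired analysis was possible because each group was 1 library, and leaving out a replicate was not possible for the same reason. Of the planned values recomputed, 60 were classed as the same, 28 as moved and 2 as reversed. A value classed as the same could still change in size. In TAC against Iso the members' median log2 ratio of 0.292 became 0.154 with peak depth (all genes 0.193). That median became 0.0935 among members whose region has 1 gene only (all genes 0.233). Recentring on the median of all genes turned the members' median log2 ratio to −0.0488 in Iso against Veh/Sham and −0.071 in TAC against Veh/Sham, and gave 0.0066 in TAC against Iso. It also gave 8 lower members in Iso, 6 higher and 4 lower in TAC against Veh/Sham, and 8 higher and 4 lower in TAC against Iso, by its construction of taking off the shift of all genes. With peak depth, 2 members were lower in Iso. With a pseudocount of 5, 2 members were lower in Iso, 0 members were lower in TAC than in Veh/Sham and 1 lower than in Iso. With 0.1, 7 were lower in Iso and 2 in TAC than in Veh/Sham. A filter that dropped the lowest 25% of regions by signal left 2 lower in Iso. The 2-fold rule, which is stricter, gave 5 higher and 1 lower in Iso, 10 higher and 0 lower in TAC against Veh/Sham, and 6 higher and 0 lower in TAC against Iso. With regions called in either library, 6 of 44 members were higher in TAC than in Iso. The 28 members whose region has 1 gene only gave 7 higher and 1 lower in Iso, 11 higher in TAC, and 7 higher in TAC than in Iso, among fewer genes. Averaging each gene's regions gave a median of 0.611, 32 higher and 0 lower in TAC against Veh/Sham, and 1 lower in TAC against Iso; the cause was not tested. Own promoter regions, added after seeing the data for 52 members, gave 0 lower members in TAC against Veh/Sham and 0 in TAC against Iso. The other 7 values so recomputed were classed as the same. Median peak depths were 19 to 26 fragments. The counting interval of the peak depth ratio lay wholly above 1 for 3 members in Iso against Veh/Sham (background 11.8%). It did so for 9 in TAC against Veh/Sham (background 20%). For the others it reached 1 at this depth. Such an interval covers counting error only and is no test. Neither the input library nor a replicate stands behind any value.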
